A study of Mus musculus with 6 samples.

Results

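Genes that duplicate the genome and make its building blocks were compared between tumour CD8 T cells sorted as positive or negative for the transcription factor Eomes, which shapes effector and memory CD8 cells. The set held 36 genes, chosen by name as DNA replication and nucleotide synthesis genes, among 12571 genes tested. Each was represented by its brightest probe set, a group of oligonucleotides on the array that reports one transcript, ranked by mean signal over all 6 arrays, and all signals and differences are on the log2 scale. A probe set of its own was annotated to 35 of the 36, and all 35 passed the filter on low signal. Chaf1a, a subunit of the histone chaperone CAF-1, had no probe set in the annotation used here and is not analysed here. The source was MCA-205, a transplantable fibrosarcoma, grown in male C57BL/6 Eomes-GFP mice, whose GFP reporter marks cells that express Eomes. Every mouse had received aOX40 against OX40, which costimulates T cells (250 ug, given on days 12 and 16), and aCTLA-4 against CTLA-4, which restrains them (200 ug, given on days 12, 14 and 16). Tumours were taken on day 19, and the GFP+ (Eomes+) and GFP- (Eomes-) CD8 fractions gave 3 arrays each. Both fractions therefore share the reporter allele, the tumour and both antibodies, and cells of untreated mice are not analysed here. The series' design text speaks of 3 independent experiments and ties no array to an animal, so the errors and p-values below measure the spread between these samples.

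DNA replication is prepared in G1, when the origin recognition complex, Cdc6 and Cdt1 load the Mcm2-7 helicase onto chromatin, a step called licensing. Cyclin E with its kinase and the E2F factors then drive the cell into S phase, where Cdc45 and the GINS complex switch the helicase on and the polymerases, the sliding clamp Pcna and its loader copy both strands. Most of these genes are transcribed from late G1 under E2F control and are low in resting T cells. Their messenger RNA is therefore a common gauge of how much of a T cell population is in cycle, and activated CD8 T cells in tumours are known for dividing.

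The promoters show one feature that the choice of genes did not use. RefSeq promoter windows of assembly GRCm38.p6, each 300 bases long with 250 before and 50 after the start site, were given for 31 of the 36 genes (36 windows). They were searched on both strands, without mismatches, for the E2F motif in its forms TTTCCCGC, TTTCGCGC, TTTGCCGC and TTTGGCGC. A match was found for 11 of the 31 genes (35.5%), against 4.63% of 10125 tested genes with a window and 2.6% of all 27025 genes with a window. The genes with a match were Cdc6, Cdt1, Mcm3, Mcm5, Mcm6, Mcm7, Lig1, Pola1, Pold1, Rfc3 and Uhrf1. The motif was not particular to these genes: it was found for 10 of 29 other replisome genes (34.5%) and 8 of 24 G1/S control genes (33.3%), and for 2 of 26 other nucleotide synthesis genes (7.69%) and 1 of 27 mitosis genes (3.70%). The cell cycle homology motif TTTGAA was found for 3 of 31 replication genes (9.68%), against 14.3% of tested genes, and for 20 of 27 mitosis genes (74.1%). Matches on opposite strands could overlap, and a match describes the letters of the window, not a bound site. The windows of Mcm6, which held the most matches, and of Mcm5, Cdt1, Ccne1 and Tk1, whose signals were among those that differed most between the fractions, are given from 5′ to 3′ on the gene's strand, with the E2F matches in capitals.
Mcm6 (chr1:128359656-128359955, minus strand): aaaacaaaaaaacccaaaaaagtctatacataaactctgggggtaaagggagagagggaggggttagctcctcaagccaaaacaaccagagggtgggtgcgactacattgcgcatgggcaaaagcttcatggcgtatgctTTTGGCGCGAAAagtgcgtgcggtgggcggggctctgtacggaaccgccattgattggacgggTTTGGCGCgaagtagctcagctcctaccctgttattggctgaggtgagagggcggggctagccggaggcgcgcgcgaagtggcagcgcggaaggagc
Mcm5 (chr8:75109259-75109558, plus strand): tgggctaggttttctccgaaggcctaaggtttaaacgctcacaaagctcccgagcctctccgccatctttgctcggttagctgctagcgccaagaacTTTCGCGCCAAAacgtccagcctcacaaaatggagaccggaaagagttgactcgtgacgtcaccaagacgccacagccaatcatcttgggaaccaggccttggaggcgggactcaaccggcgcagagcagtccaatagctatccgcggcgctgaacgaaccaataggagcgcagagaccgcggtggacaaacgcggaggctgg
Cdt1 (chr8:122567765-122568064, plus strand): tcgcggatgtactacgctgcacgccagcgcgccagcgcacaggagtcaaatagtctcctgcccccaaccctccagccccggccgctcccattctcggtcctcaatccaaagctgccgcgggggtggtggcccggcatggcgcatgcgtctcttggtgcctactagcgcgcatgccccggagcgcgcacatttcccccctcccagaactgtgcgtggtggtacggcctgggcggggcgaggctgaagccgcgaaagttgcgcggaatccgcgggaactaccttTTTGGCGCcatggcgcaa
Ccne1 (chr7:38107441-38107740, minus strand): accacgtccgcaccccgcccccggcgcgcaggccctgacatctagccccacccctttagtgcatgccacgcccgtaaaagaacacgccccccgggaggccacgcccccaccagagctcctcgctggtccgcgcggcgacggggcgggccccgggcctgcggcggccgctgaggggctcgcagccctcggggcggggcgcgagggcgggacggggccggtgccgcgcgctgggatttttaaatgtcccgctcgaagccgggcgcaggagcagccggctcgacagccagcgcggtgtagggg
Tk1 (chr11:117825965-117826264, minus strand): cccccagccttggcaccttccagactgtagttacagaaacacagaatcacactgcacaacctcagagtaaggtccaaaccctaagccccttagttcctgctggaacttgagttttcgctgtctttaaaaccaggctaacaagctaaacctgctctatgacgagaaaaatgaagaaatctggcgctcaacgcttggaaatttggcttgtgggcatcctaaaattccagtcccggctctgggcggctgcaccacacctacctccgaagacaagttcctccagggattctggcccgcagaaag
Mcm6 holds 3 matches, of which a pair on opposite strands overlaps in the first capital run, Mcm5 holds 2 that overlap in the same way, and Cdt1 holds 1 lying 33 bases after the start site. The Ccne1 and Tk1 windows hold none of these 4 letter strings.

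The arrays had median log2 signals between 6.35 and 6.42, and their number limits the precision of every value. Eomes itself read 10.38, 9.86 and 8.38 log2 in Eomes+ replicates 1, 2 and 3 (the order used throughout) and 6.85, 6.89 and 5.42 in Eomes- cells, so the fractions followed their labels. The defining genes Cd3e and Cd8a lay between 11.78 and 13.55 log2 on every array. RNA of other cells was present too: over 24 tumour and fibroblast genes the mean was 8.66, 10.58 and 11.40 in Eomes+ and 8.53, 9.67 and 11.47 in Eomes- cells, and over 20 macrophage and monocyte genes it was 8.58, 9.81 and 10.56 in Eomes+ and 8.32, 9.23 and 10.58 in Eomes- cells. Over 16 T cell receptor and CD8 genes it was 11.69, 11.52 and 10.41 in Eomes+ and 11.87, 11.88 and 10.54 in Eomes- cells. The arrays numbered 3 thus had the most tumour and macrophage signal and the least T cell signal in both fractions. Between fractions, 22 of 24 tumour and fibroblast genes and 14 of 20 macrophage genes had a higher mean in Eomes+ cells (median differences 0.30 and 0.26 log2) and 14 of 16 T cell genes a lower one (median -0.17), with 0 of these passing limma's test. Over all genes tested 5962 of 12571 had a higher mean in Eomes+ cells and 6609 a lower one. By replicate number the medians were 0.19, 0.86 and -0.16 log2 for tumour and fibroblast genes (14, 24 and 5 of 24 higher on the Eomes+ array). They were 0.33, 0.56 and -0.09 for macrophage genes and -0.16, -0.36 and -0.19 for T cell genes. Further lists had medians of 0.43 (7 endothelial genes), 0.41 (3 neutrophil genes), 0.10 (4 B and plasma cell genes) and -0.34 log2 (7 CD4 and regulatory T cell genes), and 0 of their genes passed. The 3' to 5' signal ratio of the Gapdh control probe sets, a sign of RNA quality, was 1.74 ± 0.17 log2 in Eomes+ and 1.24 ± 0.26 in Eomes- (SD, 3 arrays each; p = 0.1 by a two-sided exact permutation test, which can go no lower here), and that of Actb 0.12 ± 0.04 against 0.05 ± 0.06 (exact permutation p = 0.2). In bulk RNA of this kind, fewer cycling cells and less replication RNA per cell cannot be told apart.

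As a set, the replication genes differed little in level between the fractions. Their median difference, Eomes+ minus Eomes-, was -0.01 log2, beside -0.02 log2 over all genes tested, with 16 of 35 genes higher in mean and 19 lower. Alternative settings moved these counts both ways, from 12 higher and 23 lower without Eomes+ replicate 2 to 24 and 11 with array weights (20 and 15 after quantile normalization). The mean over the 35 genes was 9.60 ± 0.10 log2 in Eomes+ and 9.59 ± 0.09 in Eomes- (SD, n = 3 each). No gene of the set passed limma's test at an adjusted p under 0.05 (0 of 35, against 0 of 12571 genes, 0.00%). Eomes, whose reporter the cells were sorted on, did not pass either (difference 3.15 log2, SE 0.64; limma unadjusted p = 0.00205). With 3 arrays a fraction, failing this test therefore does not show that a gene is equal between the fractions. At an unadjusted p under 0.05 there were 2, Cdt1 and Tk1 (5.71% of the set, against 3.25% of all genes). No single difference reached 1 log2, a 2-fold change, and 4 lay beyond 0.5 log2 (11.4%, against 13.3% of all genes).

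The data also bound how large a difference in the RNA of the sorted samples could have been missed. That RNA includes other cells' RNA, so the bounds are not those of the T cells alone. For 28 of the 35 genes (80.0%) the 95% interval of the difference lay wholly within 1 log2 of 0, against 54.6% of all genes. The narrowest was that of Pcna, at -0.25 to 0.22 log2. Intervals of Mcm10, Cdc45, Gins1, Gins2, Rfc3, Ccne1 and Ccne2 reached beyond 1 log2, so a 2-fold difference of these lay within the error of 3 arrays a fraction. The set was brighter than all genes tested, at a mean of 9.60 log2 in Eomes+ and 9.59 in Eomes- against 8.48 and 8.49. Its median SE was 0.25 log2 against 0.29. The cumulative plot of differences shows the replication genes following all genes closely through the middle.

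**Figure D1:**
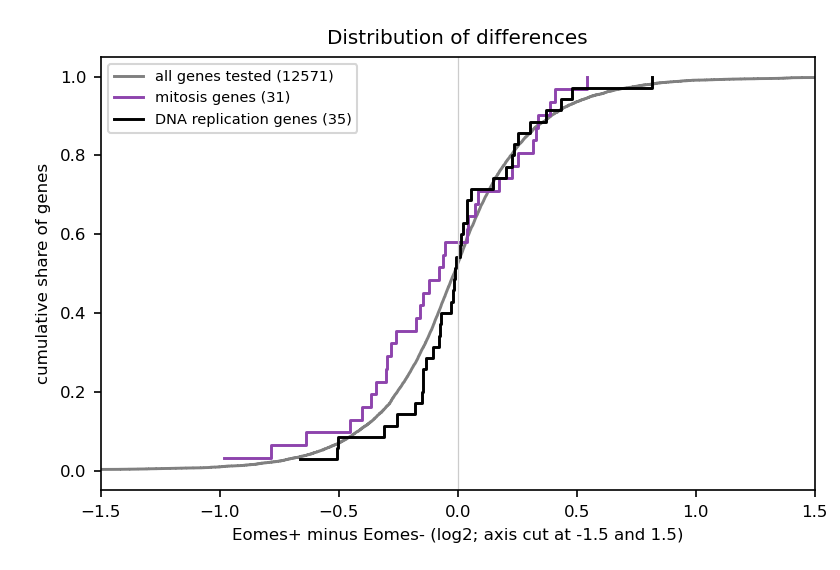
Cumulative share of genes (vertical axis) at or below a given difference between the fractions (horizontal axis, Eomes+ minus Eomes-, log2) for 35 DNA replication genes, 31 mitosis genes and all 12571 genes tested. The replication curve crosses the middle at -0.01 log2 and the curve of all genes at -0.02, while that of mitosis genes crosses at -0.08.

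The genes that commit a cell to S phase held the difference of greatest size in the set, that of Ccne1, and the widest interval, that of Ccne2, and none of the 3 separated the fractions. Ccne1, cyclin E1, read 10.38, 9.48 and 8.67 in Eomes+ cells and 9.13, 8.58 and 8.38 in Eomes- cells. Each Eomes+ array was above the Eomes- array of its own number, yet the groups overlapped, and the difference was 0.82 log2 (SE 0.46; 1.76-fold; limma adjusted p = 1.00). The other Ccne1 probe set did not repeat it, at 8.42, 8.11 and 8.08 in Eomes+ cells and 8.55, 7.85 and 8.50 in Eomes- cells, a difference of -0.10 log2. Ccne2, cyclin E2, read 4.80, 7.22 and 7.51 in Eomes+ cells and 6.73, 7.11 and 7.22 in Eomes- cells. Eomes+ replicate 1 stood alone at the bottom, below that array's filter level, and without it the difference of -0.51 log2 (SE 0.71) became 0.34. E2f1, the activator of the programme, read 7.59, 7.83 and 7.91 in Eomes+ cells and 7.91, 7.53 and 8.21 in Eomes- cells, with groups that overlapped (difference -0.10 log2, SE 0.27).

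Of the 9 licensing genes 7 had a higher mean in Eomes+ cells, with a median difference of 0.04 log2, and most differences were close to 0. Cdt1, which brings the helicase to the origin, read 11.03, 10.90 and 10.96 in Eomes+ cells and 10.50, 10.33 and 10.63 in Eomes- cells. The fractions did not overlap, with Eomes+ the higher, and the difference was 0.48 log2 (SE 0.15; 95% interval 0.11 to 0.84; 1.39-fold). Its unadjusted p in limma, 0.0181, was the smallest of the set, and its adjusted p was 1.00. With array weights it alone of the set passed (0.57 log2, limma adjusted p = 0.0477), where 1 of 35 (2.86%) stands beside 253 of 12571 genes (2.01%), a share near the background. Its other passing probe set differed by only 0.05 log2. Cdc6, the partner of Cdt1 in loading, read 8.21, 8.05 and 7.35 in Eomes+ cells and 8.16, 7.49 and 7.89 in Eomes- cells, and Orc6, of the origin recognition complex, ranged from 9.14 to 9.85 over the 6 arrays. Neither of these separated the fractions (differences 0.02 and 0.06 log2).

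The 6 subunits of the Mcm2-7 ring sit in one complex, and on the brightest probe sets 5 of them differed by less than 0.2 log2. Among other probe sets above the filter, Mcm2 differed by 0.31 log2, Mcm6 by -0.33 and Mcm3 by between -0.35 and 0.03. Those of Mcm4 and Mcm7 lay between -0.05 and 0.16 log2. Mcm2 read 9.76, 10.68 and 10.43 in Eomes+ cells and 10.06, 10.26 and 10.43 in Eomes- cells, a difference of 0.04 log2 (SE 0.27). Mcm3 read 10.53, 10.45 and 9.69 in Eomes+ cells and 10.32, 10.32 and 10.48 in Eomes- cells, where Eomes+ replicate 3 was the low array and the other 5 lay close together (difference -0.15 log2, SE 0.26). Mcm5 was the exception among the brightest probe sets, at 11.49, 10.93 and 11.02 in Eomes+ cells and 10.93, 10.69 and 10.52 in Eomes- cells. The Eomes+ arrays were all the higher, though replicate 2 barely exceeded Eomes- replicate 1, and the difference was 0.43 log2 (SE 0.21; limma unadjusted p = 0.0789, adjusted p = 1.00). The other Mcm5 probe set that passed the filter read 9.68, 10.06 and 9.54 in Eomes+ cells and 10.22, 10.03 and 9.40 in Eomes- cells, a difference of -0.13 log2, so the direction of Mcm5 turned with the choice of probe set. Mcm4, Mcm6 and Mcm7 differed by 0.04, -0.07 and 0.01 log2. In Mcm4 the within-number differences were only 0.04, 0.03 and 0.04 log2 and in Mcm6 -0.06, -0.08 and -0.08, while the signals ranged over 0.75 and 0.55 log2 across arrays, so arrays of one number lay closer to each other than arrays of one fraction.

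**Figure D2:**
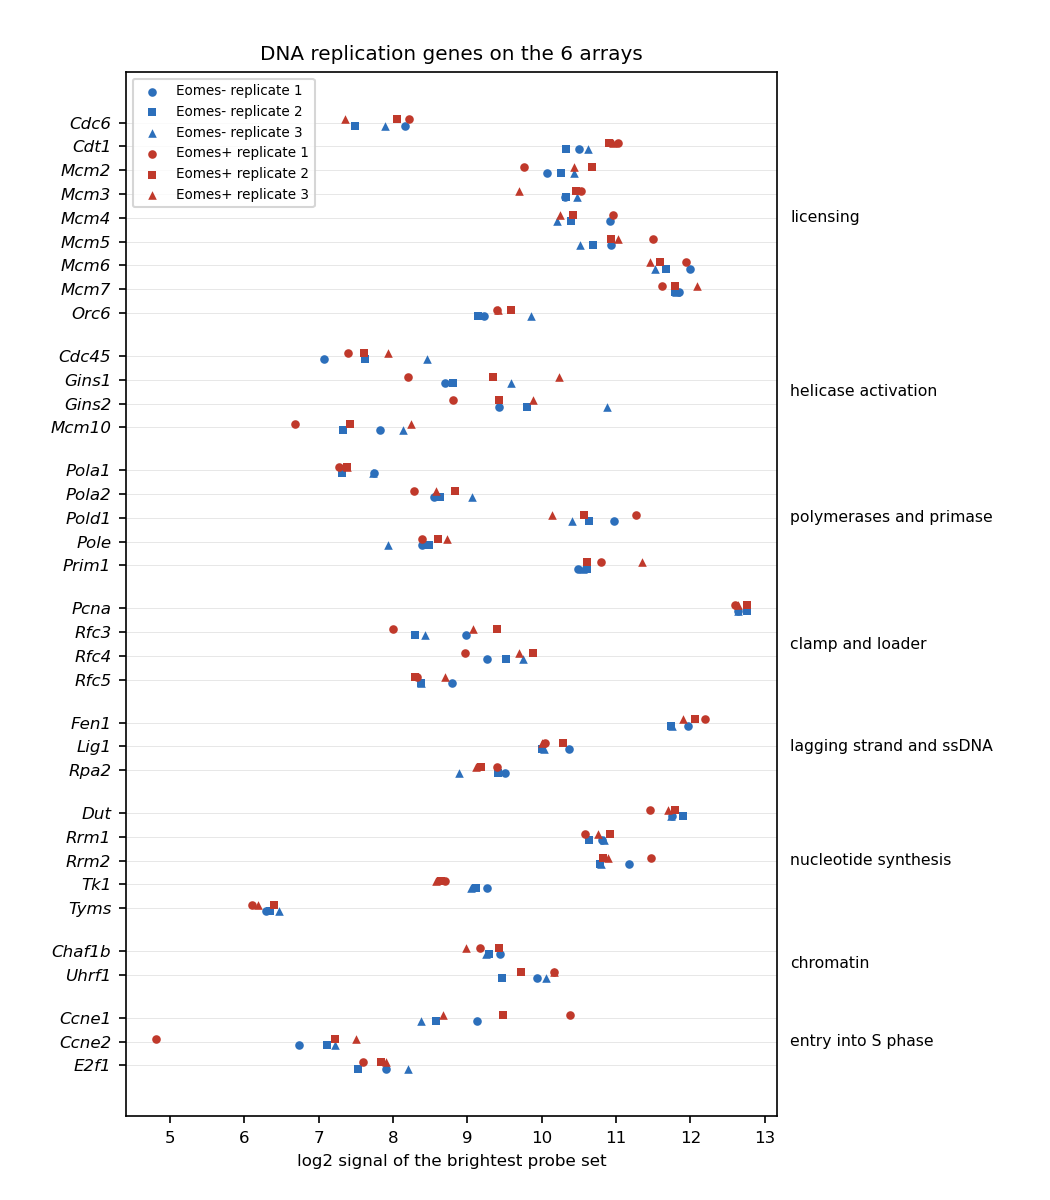
Log2 signal (horizontal axis) of the brightest probe set of 35 DNA replication genes (rows, grouped by role) on each of 6 arrays, Eomes+ in red and Eomes- in blue, with the replicate number given by the marker shape. The colours intermix in most rows; they separate for Cdt1 and, barely, for Mcm5 and Prim1, with Eomes+ higher, and for Tk1, with Eomes+ lower.

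The 4 helicase activators varied widely from array to array, and 3 of them had a lower mean in Eomes+ cells. Gins2, a GINS subunit, read 8.80, 9.42 and 9.88 in Eomes+ cells and 9.42, 9.80 and 10.88 in Eomes- cells. It was lower on the Eomes+ array of each number (-0.61, -0.37 and -1.002 log2), but its arrays within a fraction spread by over 1 log2 and the groups overlapped (difference -0.66 log2, SE 0.45; limma adjusted p = 1.00). The other Gins2 probe set differed in the same direction in mean (-0.45 log2), but not in number 2 (within-number differences -0.59, 0.13 and -0.89 log2). Gins1, another GINS subunit, read 8.20, 9.34 and 10.23 in Eomes+ cells and 8.69, 8.80 and 9.59 in Eomes- cells, a difference of 0.23 log2 of the opposite sign. Cdc45, the third part of the active helicase, read 7.39, 7.61 and 7.93 in Eomes+ cells and 7.07, 7.62 and 8.45 in Eomes- cells, with no separation. Mcm10, which helps to open the duplex, read 6.68, 7.43 and 8.25 in Eomes+ cells and 7.82, 7.32 and 8.13 in Eomes- cells; its difference of -0.31 log2 came from the pair numbered 1 and was 0.11 without it, and both other Mcm10 probe sets had a higher mean in Eomes+ cells. Gins1, Gins2, Cdc45 and Mcm10 were each highest on a number 3 array, the arrays with the most tumour and macrophage signal given above, and the part of other cells' RNA in their levels was not tested.

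Of the 5 polymerase and primase genes 2 had a higher and 3 a lower mean in Eomes+ cells, and 0 passed. Pola1, the catalytic subunit of polymerase alpha, read 7.27, 7.38 and 7.38 in Eomes+ cells and 7.74, 7.32 and 7.73 in Eomes- cells (difference -0.26 log2, SE 0.24). Its partner in priming, Prim1, had a higher mean in Eomes+ cells by 0.37 log2 (SE 0.22), at 10.80, 10.61 and 11.35 in Eomes+ cells and 10.49, 10.61 and 10.56 in Eomes- cells. The lowest Eomes+ array barely exceeded the highest Eomes- array, and the other Prim1 probe set differed by -0.22 log2, so the direction again turned with the probe set. Pole, the leading strand polymerase, read 8.39, 8.60 and 8.72 in Eomes+ cells and 8.39, 8.48 and 7.94 in Eomes- cells, where Eomes- replicate 3 was the lowest array and the difference of 0.30 log2 was 0.14 without it. Pola2 and Pold1 differed by -0.18 and -0.01 log2.

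Pcna, the clamp that holds polymerases on DNA, had the smallest range over the 6 arrays of all 35 genes. It read 12.60, 12.77 and 12.63 in Eomes+ cells and 12.63, 12.76 and 12.64 in Eomes- cells, a range of 0.17 log2 on arrays that differed widely in tumour signal. Of its loader, Rfc4 and Rfc5 differed by 0.01 and -0.08 log2, and Rfc3 by 0.25 log2 (SE 0.42), with within-number differences of -0.98, 1.10 and 0.64 that did not share a sign. Fen1, the flap nuclease of the lagging strand, read 12.19, 12.06 and 11.90 in Eomes+ cells and 11.97, 11.73 and 11.75 in Eomes- cells. It was higher on the Eomes+ array in each number, with groups that overlapped (0.23 log2, SE 0.13). Its other probe set differed in mean by 0.76 log2 in the same direction, but its within-number differences were 0.55, -0.20 and 1.93 log2. Lig1, the ligase that seals the fragments, read 10.05, 10.29 and 9.999 in Eomes+ cells and 10.36, 9.9996 and 10.03 in Eomes- cells and did not separate the fractions, and Rpa2, of the protein that coats exposed strands, differed by -0.03 log2 (SE 0.24).

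Among the 5 nucleotide synthesis genes, Tk1 had groups that did not overlap and the other 4 differed by at most 0.15 log2 in either direction. Tk1, which salvages thymidine and has 1 probe set here, read 8.69, 8.65 and 8.57 in Eomes+ cells and 9.26, 9.12 and 9.04 in Eomes- cells. All Eomes+ arrays were below all Eomes- arrays, the within-number differences were -0.57, -0.47 and -0.47 log2, and the mean difference was -0.50 log2 (SE 0.20; 95% interval -0.98 to -0.03; 1.42-fold lower in Eomes+; limma unadjusted p = 0.0414, adjusted p = 1.00). Its direction was the same under all 19 alternative settings, between -0.55 and -0.44 log2. Most of these could not have turned it. With 1 probe set and groups that did not overlap, choosing probe sets, leaving arrays out or weighting them keeps the sign. Rrm1, the large subunit of ribonucleotide reductase, read 10.58, 10.92 and 10.76 in Eomes+ cells and 10.81, 10.63 and 10.84 in Eomes- cells (difference -0.01 log2, SE 0.16). Rrm2, the small subunit that rises in S phase, read 11.47, 10.83 and 10.88 in Eomes+ cells and 11.17, 10.78 and 10.79 in Eomes- cells (0.15 log2, SE 0.23), while the dimmest of its 3 probe sets differed by -0.41 log2. Dut, which removes dUTP, differed by -0.15 log2 (SE 0.14).

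Tyms, the thymidylate synthase that makes dTMP, read 6.10, 6.39 and 6.18 in Eomes+ cells and 6.29, 6.35 and 6.47 in Eomes- cells, only slightly above the filter level of about 5.7 log2. A further probe set, annotated to both Tyms and its pseudogene Tyms-ps and therefore left out of the fit, read 9.62, 10.26 and 10.24 in Eomes+ and 9.82, 10.38 and 10.54 in Eomes- cells (difference -0.21 log2). Neither separated the fractions. Of the chromatin genes, Uhrf1, which carries DNA methylation through replication, read 10.17, 9.72 and 10.17 in Eomes+ cells and 9.93, 9.46 and 10.05 in Eomes- cells, higher on the Eomes+ array in each number and overlapping between groups (0.20 log2, SE 0.24). Chaf1b, of the chaperone that lays histones on new DNA, read 9.16, 9.43 and 8.98 in Eomes+ cells and 9.43, 9.29 and 9.26 in Eomes- cells (difference -0.13 log2, SE 0.21).

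**Figure D3:**
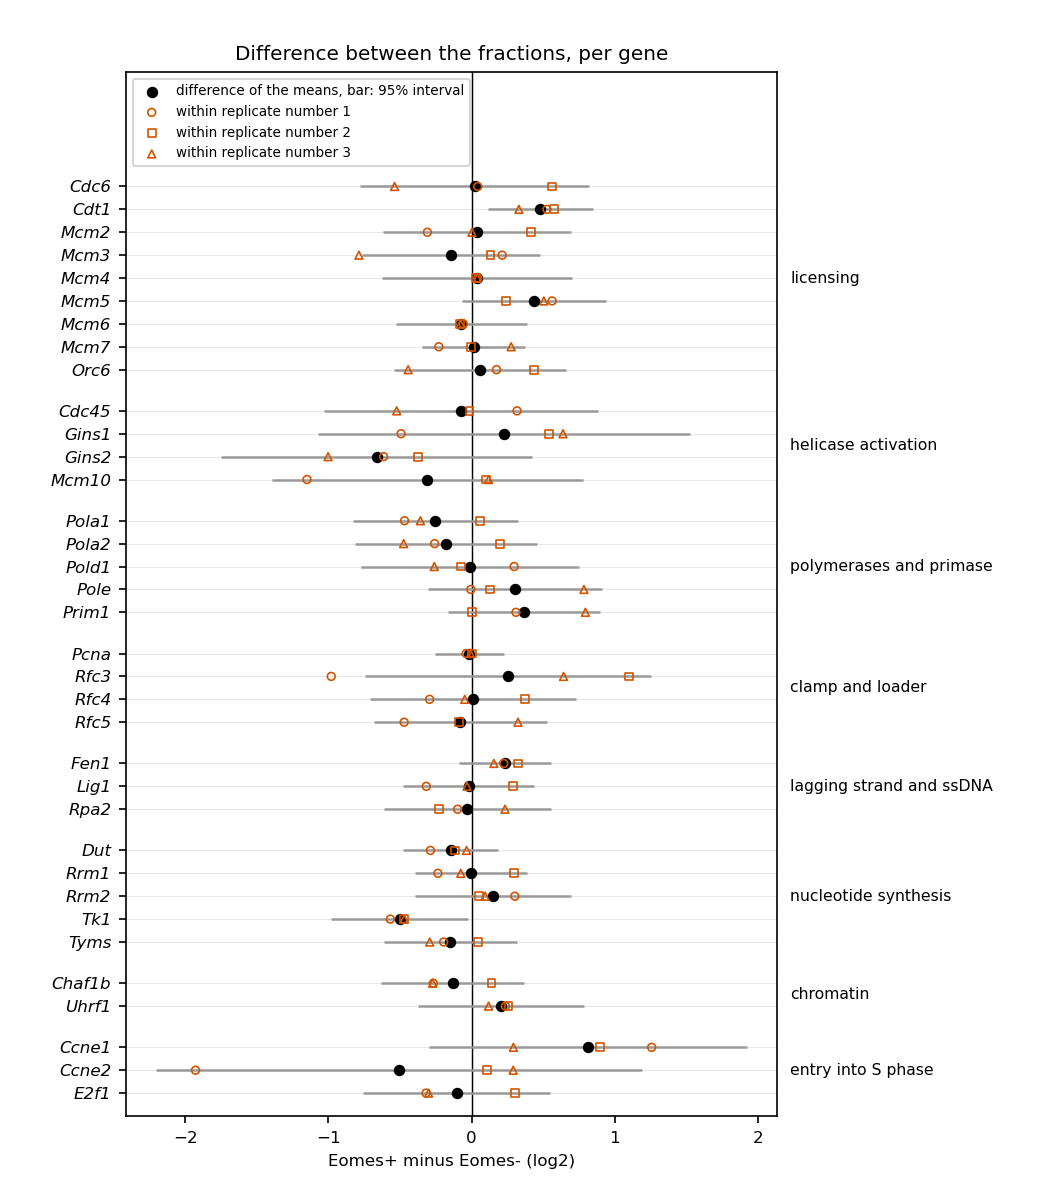
Difference between the fractions (horizontal axis, Eomes+ minus Eomes-, log2) for 35 DNA replication genes grouped by role. Filled points are differences of the means with limma's 95% interval and open orange marks the differences within each replicate number; the intervals of Cdt1 and Tk1 leave out 0, before any adjustment over genes.

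Taken gene by gene, 3 of 35 (8.57%: Cdt1, Mcm5 and Prim1) had every Eomes+ array above every Eomes- array, against 3.05% of all genes. The reverse held for 1 of 35 (2.86%: Tk1), against 4.66%. Within replicate numbers, 8 genes (22.9%) were higher on the Eomes+ array in all 3 numbers, against 14.0% of all genes: Ccne1, Cdt1, Mcm4, Mcm5, Prim1, Fen1, Rrm2 and Uhrf1. Another 4 (11.4%) were lower in all 3, against 17.3%: Gins2, Tk1, Dut and Mcm6. The set did not lean one way throughout. Its median within-number difference was -0.20 log2 in number 1, 0.13 in number 2 and -0.01 in number 3, with 13, 26 and 17 of the 35 genes higher on the Eomes+ array.

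Separate probe sets of a gene gave a check within the same arrays. Of the 35 genes, 25 had at least 1 other probe set above the filter, 34 such probe sets in all, and 23 of the 34 differed in the same direction as the brightest. For genes whose brightest probe set differed by more than 0.2 log2 the directions matched in 5 of 11. In the mean they matched for Gins2, Fen1, Gins1, Rfc3 and Cdt1 and were opposite for Ccne1, Mcm5, Prim1, Uhrf1 and both further Mcm10 probe sets. Each of the matching probe sets had within-number differences of both signs. Taking the second brightest probe set wherever a gene had one, the other probe sets alone had a median difference of -0.01 log2.

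**Figure D4:**
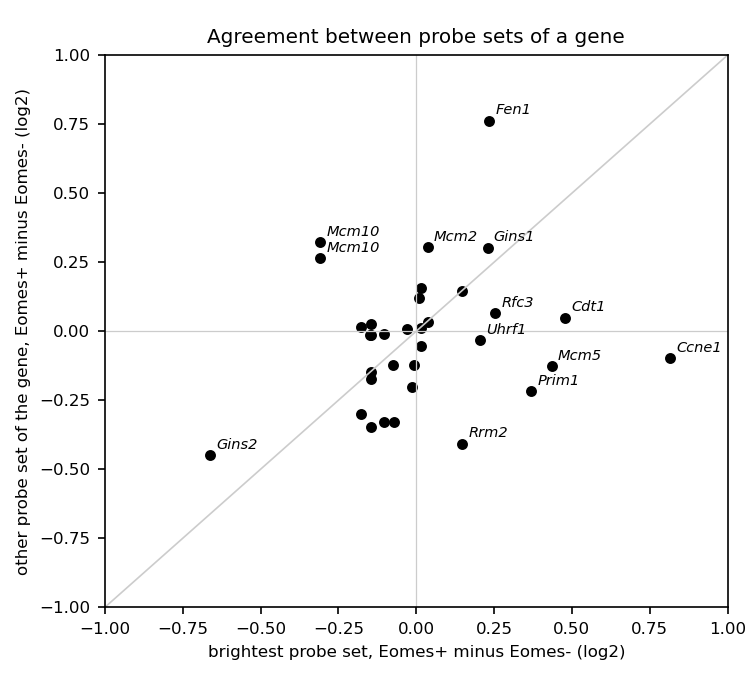
Difference between the fractions (Eomes+ minus Eomes-, log2) on the brightest probe set of a gene (horizontal axis) against each of its other probe sets above the filter (vertical axis), 34 points from 25 genes, with the line of equality in grey. Ccne1, Mcm5 and Prim1 lie to the right of 0 and below it, whereas Gins2 and Fen1 lie on the same side on both axes.

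Across arrays the replication genes moved little beside the RNA of other cells. Their mean was 9.48, 9.67 and 9.64 in Eomes+ and 9.63, 9.49 and 9.65 in Eomes- cells, a span of under 0.2 log2, whereas the mean of tumour and fibroblast genes spanned nearly 3 log2 and that of T cell receptor and CD8 genes over 1 log2. Between number 1 and number 3 arrays the median replication gene differed by 0.05 log2 (number 3 minus number 1, both fractions averaged), with 20 of 35 higher on number 3. Single genes departed from this in both directions, from 1.59 log2 for Ccne2, 1.46 for Gins1 and 1.27 for Gins2 to -0.85 for Pold1 and -1.23 for Ccne1. Mitosis genes were higher on number 3 by a median of 0.39 log2 (24 of 31 genes). How much of each level came from tumour cells, which divide as well, was not tested.

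**Figure D5:**
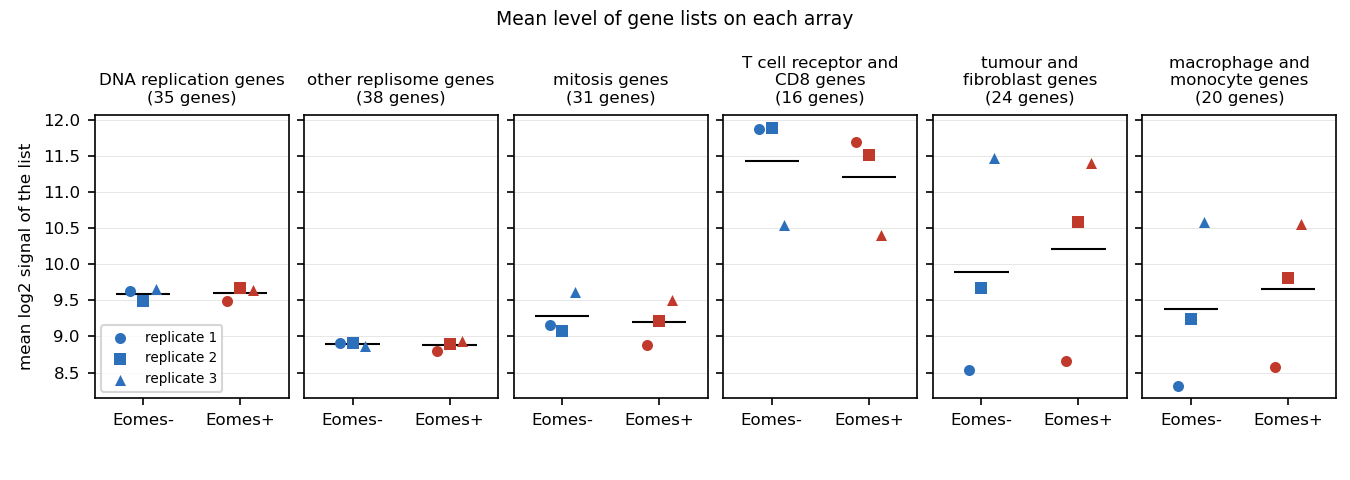
Mean log2 signal (vertical axis) of 6 gene lists on each array of the Eomes- (blue) and Eomes+ (red) fractions, with marker shapes for replicate numbers and a line at the mean of 3 arrays. The replication and other replisome lists stay level over all 6 arrays, while tumour and macrophage lists are highest and the T cell list lowest on the arrays numbered 3.

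The rest of the pathway gave similar medians. Of 38 other replisome genes, all tested, 17 were higher in mean and 21 lower in Eomes+ cells with a median of -0.05 log2, and 0 passed in either direction. Pold4, a small subunit of polymerase delta, had the smallest p among them, at 9.64, 9.28 and 8.87 in Eomes+ and 10.13, 10.37 and 9.99 in Eomes- cells, groups that did not overlap (-0.90 log2, SE 0.26; limma unadjusted p = 0.0109, adjusted p = 1.00). It was followed by Pold2 (-0.40 log2, SE 0.22), of the same polymerase, Cdc7 (-0.49 log2, SE 0.32), the kinase that fires origins, and Ticrr (0.61 log2, SE 0.40). Of 30 other nucleotide synthesis genes 28 were tested, 15 higher and 13 lower with a median of 0.03 log2, and 0 passed. The smallest p values were those of Adsl (0.52 log2, SE 0.20) and Pfas (0.47 log2, SE 0.23), both of purine synthesis, Dck (0.67 log2, SE 0.28), the deoxycytidine kinase, and Tk2 (-0.55 log2, SE 0.25), the mitochondrial thymidine kinase.

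Regulators of the G1 to S transition had a median of -0.04 log2 over 30 tested genes of 31 (13 higher, 17 lower, 0 passing). The 4 of smallest p were all lower in mean in Eomes+ cells: Tfdp2 (-0.53 log2, SE 0.27), an E2F partner, the pocket proteins that restrain E2F, Rbl2 (-0.51 log2, SE 0.31) and Rbl1 (-0.45 log2, SE 0.30), and the kinase inhibitor Cdkn1b (-0.47 log2, SE 0.30). Mitosis genes had a median of -0.08 log2 (31 tested of 32; 13 higher, 18 lower, 0 passing). Mki67, the usual proliferation marker, read 11.74, 11.73 and 11.88 against 12.18, 11.81 and 11.79 (-0.15 log2, SE 0.15), and Top2a, which untangles replicated DNA, 9.78, 10.15 and 10.25 against 10.26, 9.94 and 10.34 (-0.12 log2, SE 0.21). Plk1, a kinase of mitotic entry, was lower on every Eomes+ array, at 6.94, 6.96 and 6.95 against 7.59, 7.49 and 8.13 (-0.79 log2, SE 0.26; limma unadjusted p = 0.0216, adjusted p = 1.00), followed by Kif11 (-0.64 log2, SE 0.24), Incenp (0.39 log2, SE 0.20) and Cenpf (-0.98 log2, SE 0.53).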

How the data were processed

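The 36 genes and the 11 further gene lists were chosen with earlier results of these data known. The authors deposited log2 values of 45101 probe sets. The submitters' processing notes name MAS5 and Transcriptome Analysis Console with no role, and the log2 scale was read from the values (1.68 to 14.95). Probe sets were named from the platform annotation and symbols updated through RefSeq (34741 of 34945 with 1 gene matched); those of several genes (932) or none listed (9160) and 64 controls were left out. Kept probe sets exceeded the 40th percentile of their array on 3 or more of 6 arrays, and the brightest stood for each gene. Groups come from the sample titles. The fit used limma 3.58.1 under R 4.3.3 on the Eomes+ against Eomes- contrast (intensity trend, two-sided, Benjamini-Hochberg over 12571 genes, threshold 0.05, no block), tested on simulated data first. The simulated arrays had independent noise of the same size for every gene and no differences between replicate numbers. They checked the code and do not show what these arrays could detect. Values on every array are given for 22 genes that the rule lists by name and the 4 largest differences in each direction. Per pathway list up to 4 genes of smallest p are named, with a difference and SE, and the values on every array are added for Pold4, Plk1, Mki67 and Top2a. Alternatives were other normalizations, filters, a pseudocount of 32, probe set choices, variance models, a replicate block and arrays left out. Promoter windows are RefSeq's. Their genome coordinates are those of GRCm38.p6, not of the array.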

Additional observations from a re-analysis of the deposited data

How the results depend on the processing

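Over all 19 alternatives to the fit, the median difference of the replication genes stayed within -0.13 and 0.08 log2 and moved by less than 0.16 log2, its SD over replicate numbers; it was -0.01 log2 with the second brightest probe sets. With 1 array left out it lay between -0.07 and 0.03 log2, and with both arrays of a number left out between -0.13 and 0.07. The count of replication genes passing stayed at 0 except with array weights (1, Cdt1). Over all genes the count was 17 with the replicate block and 253 with array weights, and 0 in the other settings. By the rule used the numbers did not pair all the samples. Correlations of same-numbered deviations were 0.595, 0.0989 and 0.628, where each had to exceed 0.1, so numbers 1 and 3 met it and number 2 fell just short. The deviations of Eomes- replicate 2 were closer to those of Eomes+ replicate 1, at 0.302. The main fit had no block, so its errors include differences between numbers. With the replicate block 0 replication genes passed (lowest adjusted p in limma 0.284, for Cdt1). Of the 35, 6 (17.1%) then had an unadjusted p under 0.05 in limma against 2 without the block, while over all genes this count went from 409 (3.25%) to 1276 (10.2%). Of 664 values for single genes under an alternative, 641 moved by less than the spread between replicates, 22 by more and 1 newly passed. Of all 664, 82 changed sign, none of them past the threshold. Never changing sign were 9 genes, among them Cdt1, Tk1, Gins2 and Fen1. The cause of the sign changes was not tested. A replicate block or a fit without the intensity trend leaves every difference as it is, so part of the 641 could not have moved. The brightest sets of Ccne1, Mcm5 and Prim1 turned sign where probe sets without a suffix were preferred (-0.10, -0.13 and -0.22 log2). Signals near background limit Tyms and Ccne2.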

Other observations

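A pattern chosen after its values were seen concerns the kind of probe set. For 7 of the 35 genes (Mcm4, Mcm5, Mcm6, Pold1, Rrm2, Fen1 and Ccne1) the brightest probe set has the suffix x, which the manufacturer gives to probe sets whose probes may also bind other transcripts. All 7 were lower on the number 3 than on the number 1 arrays in both fractions, by between 0.26 and 1.23 log2 in the mean of the fractions (number 3 minus number 1 of -0.26 for Fen1 and -1.23 for Ccne1, median -0.48). Over all 542 tested genes with such a probe set 56.1% were lower (median -0.07 log2), and of 18 replication genes with no suffix 5 were lower (median 0.12 log2). The other probe sets of the same genes gave -0.48 log2 for Mcm5, -0.46 for Pold1, -0.45 and -0.08 for Rrm2, -0.19 for Ccne1, -0.01 for Mcm6, 0.18 for Mcm4 and 0.26 for Fen1. No test was made of this pattern.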
